A study of Mus musculus with 6 samples.

Results

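The AP-2 genes Tfap2a, Tfap2b, Tfap2c, Tfap2d and Tfap2e and the amacrine fate factors Ptf1a, Prdm13, Barhl2 and Bhlhe22 were examined in RGCs purified from E18 and P5 mouse retinas. The 9 genes were found by symbol among the 24060 genes of the count table and were chosen by their values in the E18 to P5 comparison and by their spread among the E18 samples, so their values are a description and no test is given for them. RNA was sequenced from 3 E18 samples (replicates 1, 3 and 4), labelled embryonic mouse RGCs, and from 3 P5 samples (replicates 6, 8 and 9), the early postnatal RGCs. All came from the C57BL/6 strain, with no transgene or treatment named in the labels, and were isolated by immunopanning, in which macrophages are first removed with an antibody and RGCs are then held on a dish through CD90 (Thy1). The number of animals behind a sample is not given. The name of the E18 replicate 1 column also carries the numbers 2 and 5, and whether it pools several preparations is not stated.

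AP-2 proteins are transcription factors that bind GC-rich DNA as dimers. In the retina, AP-2α (Tfap2a) and AP-2β (Tfap2b) act in newly formed amacrine and horizontal cells, the inhibitory interneurons that shape the input to RGCs, whereas AP-2δ (Tfap2d) is known from a subset of RGCs. Ptf1a, a bHLH factor that works with an E protein and Rbpj, directs precursors to the amacrine and horizontal fates, and the zinc finger protein Prdm13 acts downstream of it to promote amacrine fates. Barhl2, a homeobox factor, serves in both amacrine cells and RGCs, and Bhlhe22 (Bhlhb5) serves in amacrine and bipolar cell subtypes. AP-2γ (Tfap2c) is known mainly from trophoblast, germ cells and skin, and AP-2ε (Tfap2e) from the olfactory bulb.

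The reads counted on genes ranged from 81213639 to 114512853 per sample. The RGC markers, 15 genes, summed to 10330 to 11850 CPM, the reads on a gene per 1000000 counted, at E18 and 10400 to 11520 at P5. The marker sums of other cell types were far smaller. Retinal progenitor genes summed to 40.8 to 241 CPM at E18 and 24.1 to 35.4 at P5, and dividing cell genes to 13.3 to 199 and 7.92 to 19.0. Bipolar genes summed to 54.2 to 62.9 CPM at E18 and 83.6 to 115 at P5, and the Müller glia and astrocyte genes to 319 to 352 and 240 to 283. The lens and ocular surface list summed to 12.2 to 19.4 CPM at E18 and 13.0 to 15.8 at P5, with Foxe3 and Krt5 at 0. The photoreceptor, periocular mesenchyme, pigment cell and microglia lists each summed to at most 16.5 CPM in every sample.

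Tfap2d and Tfap2b lie next to each other on chromosome 1 of mm10, both on the plus strand. Tfap2d spans chr1:19103022-19166346 and Tfap2b spans chr1:19208914-19238576, with a gap of 42.6 kb and no annotated protein-coding gene between them. The other members are scattered. Tfap2a lies at chr13:40715302-40738376 (minus strand), Tfap2c at chr2:172549593-172558622 (plus), Tfap2e at chr4:126716006-126736240 (minus), Ptf1a at chr2:19445663-19447501 (plus), Prdm13 at chr4:21677480-21685963 (minus), Barhl2 at chr5:106452523-106458166 (minus) and Bhlhe22 at chr3:18054174-18057517 (plus). Tfap2a, Tfap2d and Ptf1a overlap annotated genes on the opposite strand. Whether the counting used strand is unknown, and reads of these partners could be included in their counts.

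The 250 bases upstream of a RefSeq start site (GRCm38.p6) are shown for the neighbouring AP-2 genes, because their levels differed so widely in the same samples, and for Ptf1a, whose E18 samples stood in the same order as those of Tfap2b. They are chr1:19211804-19212053, chr1:19102772-19103021 and chr2:19445413-19445662, all on the plus strand, and no letters are in capitals because no searched motif was found in them. The Tfap2b window lies within the span of Tfap2b given above, and other start sites of Tfap2d are not shown.
Tfap2b: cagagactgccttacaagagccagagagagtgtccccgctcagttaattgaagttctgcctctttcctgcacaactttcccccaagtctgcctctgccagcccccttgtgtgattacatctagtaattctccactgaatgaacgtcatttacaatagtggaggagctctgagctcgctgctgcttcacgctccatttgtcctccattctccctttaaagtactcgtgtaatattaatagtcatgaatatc
Tfap2d: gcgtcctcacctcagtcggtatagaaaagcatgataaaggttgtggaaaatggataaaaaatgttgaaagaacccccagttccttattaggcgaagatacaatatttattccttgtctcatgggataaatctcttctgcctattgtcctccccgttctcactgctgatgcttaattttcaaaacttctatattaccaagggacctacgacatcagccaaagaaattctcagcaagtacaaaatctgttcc
Ptf1a: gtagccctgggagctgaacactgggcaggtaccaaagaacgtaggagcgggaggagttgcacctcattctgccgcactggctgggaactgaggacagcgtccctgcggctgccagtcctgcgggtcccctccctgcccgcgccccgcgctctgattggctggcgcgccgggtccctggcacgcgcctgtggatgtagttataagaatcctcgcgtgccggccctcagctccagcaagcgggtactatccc
GC content was 46.4%, 39.6% and 66.0% in these windows of Tfap2b, Tfap2d and Ptf1a. The RefSeq promoter table held 10 start sites for 7 of the members, and Tfap2c and Bhlhe22 had no entry. The AP-2 motif GCCNNNGGC, which reads the same on both strands, was found in 0 of these 10 windows, against 13.7% of 32817 promoter windows of the same length. The E-box CAGCTG, likewise palindromic, was found in 1 of the 10, that of Tfap2e, with matches 186 and 151 bases before the start, against 13.0% of all windows. These are matches of letters and say nothing of binding.

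Tfap2b showed the widest range of all members. It was at 47.4 CPM (3937 reads) in E18 replicate 1, 119 CPM (13366 reads) in replicate 3 and 1.62 CPM (147 reads) in replicate 4. In P5 replicates 6, 8 and 9 it was at 1.01, 1.55 and 1.44 CPM, from 90, 153 and 135 reads. The ages did not overlap, but E18 replicate 4 was at 1.22 times the P5 mean, while the other E18 samples lay far above it. The E18 mean was 56.1 ± 59.3 CPM (SD, n = 3) and the P5 mean 1.33 ± 0.283 (n = 3), with a fitted log2 fold change, E18 over P5, of 5.39 ± 1.19 (SE). The value became 4.20 with E18 replicate 3 left out and 5.96 with replicate 4 left out.

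Tfap2a followed the same order among the E18 samples at a lower level, but not among the P5 samples. It was at 2.86 CPM (237 reads) in E18 replicate 1, 6.93 CPM (777 reads) in replicate 3 and 0.133 CPM (12 reads) in replicate 4. The P5 samples held 0.147, 0.0812 and 0.117 CPM, from 13, 8 and 11 reads. E18 replicate 4 lay within the P5 range, so the ages overlapped. The E18 mean was 3.31 ± 3.42 CPM (SD, n = 3) and the P5 mean 0.115 ± 0.0327 (n = 3), and the log2 fold change was 4.84 ± 1.13 (SE). With E18 replicate 3 left out it became 3.69, and with replicate 4 left out 5.41.

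Tfap2a made a small and fairly even part of the reads of the pair. Of the reads on Tfap2a and Tfap2b together, Tfap2a took 5.68% (95% Wilson interval 5.02% to 6.42%) in E18 replicate 1, 5.49% (5.13% to 5.88%) in replicate 3 and 7.55% (4.37% to 12.7%) in replicate 4. In P5 replicates 6, 8 and 9 the share was 12.6% (7.53% to 20.4%), 4.97% (2.54% to 9.50%) and 7.53% (4.26% to 13.0%). The interval of P5 replicate 6 lay above those of E18 replicates 1 and 3, and the other intervals overlapped. These intervals cover counting error only, and the 4 samples at low levels rest on 103 to 161 reads of the pair.

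**Figure D1:**
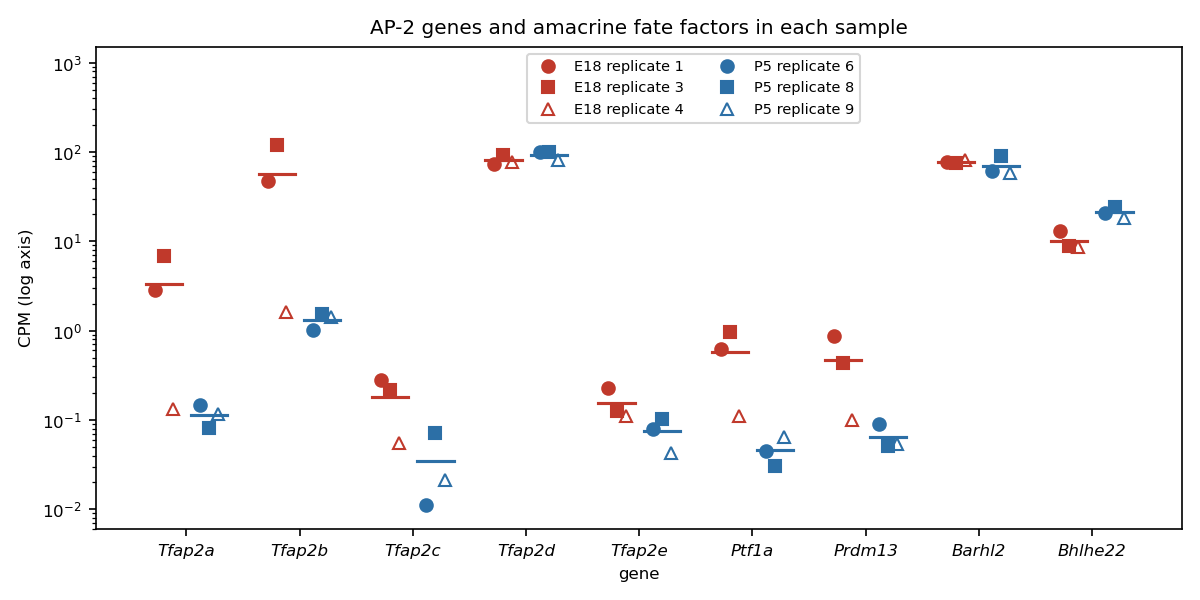
CPM (log axis) of each of the 9 members in the 3 E18 samples (red) and the 3 P5 samples (blue), 1 point per sample, with a bar at the mean of each age. Tfap2a, Tfap2b, Tfap2c, Ptf1a and Prdm13 are several-fold higher in E18 replicates 1 and 3 than in replicate 4. In replicate 4 they lie at 1.15 (Tfap2a) to 2.38 (Ptf1a) times the P5 mean. Tfap2c, Ptf1a and Prdm13 stay under 1 CPM in every sample. Tfap2d and Barhl2 lie at 58.2 to 99.9 CPM in all 6 samples.

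Ptf1a and Prdm13, the factors that set the amacrine fate, were measured from few reads and did not pass the filter on low counts. Ptf1a was at 0.627 CPM (52 reads), 0.972 CPM (109 reads) and 0.110 CPM (10 reads) in E18 replicates 1, 3 and 4. It was at 0.0451, 0.0305 and 0.0638 CPM (4, 3 and 6 reads) in P5 replicates 6, 8 and 9. Every E18 sample lay above the P5 samples, and replicate 4 was again the lowest at E18. Prdm13 was at 0.880 CPM (73 reads), 0.437 CPM (49 reads) and 0.0994 CPM (9 reads) at E18, so here replicate 1 and not replicate 3 was the highest. Its P5 samples held 0.0902, 0.0508 and 0.0531 CPM (8, 5 and 5 reads), below every E18 sample. In a fit to all genes with a count, the log2 fold change was 3.60 ± 0.71 (SE) for Ptf1a and 2.85 ± 0.68 for Prdm13, and at these counts it depends on how low values are handled.

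Tfap2c and Tfap2e were close to the limit of detection. Tfap2c had 23, 24 and 5 reads in E18 replicates 1, 3 and 4 and 1, 7 and 2 reads at P5, or 0.277, 0.214 and 0.0552 CPM against 0.0113, 0.0711 and 0.0213. E18 replicate 4 lay within the P5 range of Tfap2c, so its ages overlapped. Tfap2e had 19, 14 and 10 reads at E18 and 7, 10 and 4 at P5, or 0.229, 0.125 and 0.110 CPM against 0.0789, 0.102 and 0.0425. Its ages did not overlap, but by a margin of 0.110 against 0.102 CPM, each from 10 reads. Neither gene passed the filter.

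Tfap2d, the AP-2 gene known from RGCs, was high in every sample. It was at 74.1, 93.1 and 78.3 CPM (6146, 10441 and 7088 reads) in E18 replicates 1, 3 and 4 and at 99.9, 99.8 and 81.5 CPM (8861, 9823 and 7664 reads) in P5 replicates 6, 8 and 9. The ages overlapped, with a mean ± SD of 81.8 ± 10 CPM over the 3 E18 samples and 93.7 ± 10.6 CPM over the 3 P5 samples. The fitted log2 fold change of Tfap2d was -0.20 ± 0.12 (SE) and stayed between -0.29 and -0.12 over the omissions of single samples. Thus, of the 2 neighbouring AP-2 genes, Tfap2d spanned 74.1 to 99.9 CPM over the same 6 samples in which Tfap2b spanned 1.01 to 119.

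Barhl2 was also high in every sample. It was at 76.9, 75.2 and 80.9 CPM (6383, 8428 and 7325 reads) at E18 and at 61.0, 89.6 and 58.2 CPM (5409, 8818 and 5471 reads) at P5. The E18 samples lay inside the P5 range, and the spread was wider at P5, where the highest sample was 1.54 times the lowest, than at E18, where it was 1.08 times. The log2 fold change was 0.16 ± 0.16 (SE), falling to 0.04 without P5 replicate 9 and reaching 0.36 without P5 replicate 8.

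Bhlhe22 went the other way. It was at 12.9, 8.85 and 8.67 CPM (1070, 992 and 785 reads) in E18 replicates 1, 3 and 4 and at 20.9, 24.2 and 18.44 CPM (1857, 2387 and 1735 reads) in P5 replicates 6, 8 and 9. All E18 samples lay below the P5 samples, and replicate 4 sat with replicate 3 and not with the P5 samples. The mean ± SD was 10.1 ± 2.39 CPM over the 3 E18 samples and 21.2 ± 2.91 CPM over the 3 P5 samples, and the log2 fold change was -1.07 ± 0.18 (SE), with a range of -1.27 to -0.97 over the omissions of single samples.

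The 5 members that passed the filter on low counts were Tfap2a, Tfap2b, Tfap2d, Barhl2 and Bhlhe22. Of these, every E18 sample lay above every P5 sample for 1 (Tfap2b), against 27.6% of the 16449 genes tested, and below for 1 (Bhlhe22), against 28.5%. The E18 samples also lay above the P5 samples for Tfap2e, Ptf1a and Prdm13, which are outside the genes tested. By log2 fold change, 2 of the 5 were at least 2-fold higher at E18, as were 7.48% of the genes tested, and 1 was at least 2-fold lower, as were 10.3%. Since the comparison was used to choose the members, nothing is read from these counts. The median log2 fold change over the genes tested was 0.00.

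**Figure D2:**
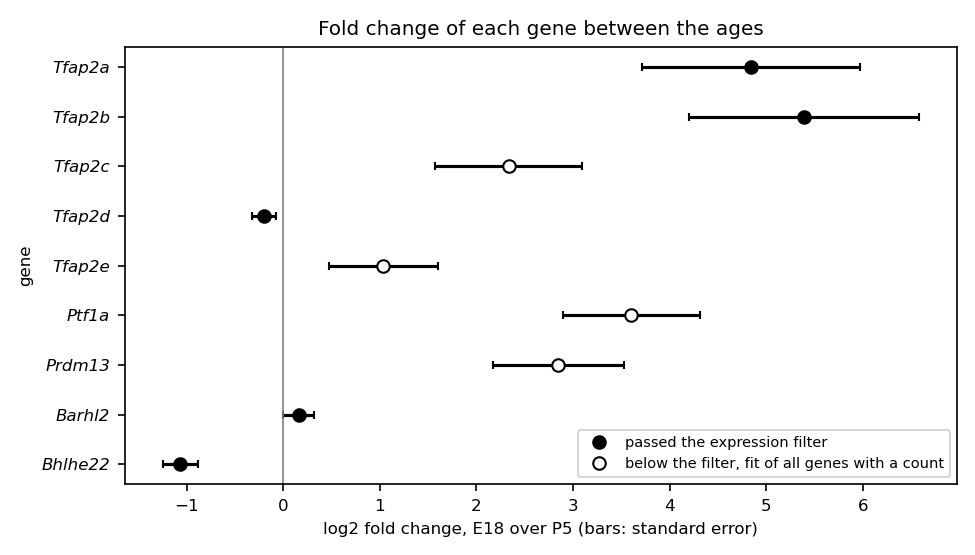
Log2 fold change, E18 over P5, of the 9 members, with bars for its standard error. Filled points passed the filter on low counts and open points come from the fit to all genes with a count. Tfap2a and Tfap2b lie at 4.84 and 5.39 with wide bars, Tfap2d and Barhl2 near 0, and Bhlhe22 at -1.07.

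The members were also read by their spread among the E18 samples, taken as the highest over the lowest CPM with a prior count of 2. With 3 samples, such a spread can be set by 1 of them. The spread was 72.5-fold for Tfap2b and 45.2-fold for Tfap2a, and 3 and 8 of the 16449 genes tested had a larger one. It was 7.55-fold for Ptf1a and 7.47-fold for Prdm13, 3.91-fold for Tfap2c and 1.90-fold for Tfap2e. Bhlhe22 (1.49-fold), Tfap2d (1.26-fold) and Barhl2 (1.08-fold) were nearer the median gene tested, at 1.16-fold. The members just inside and just outside the 4-fold mark were thus Prdm13 and Tfap2c. Without the prior count Tfap2c was at 5.02-fold, past that mark. With it, a spread of at least 4-fold was seen in 4 of 9 members, 2 of them below the filter. Among genes tested it was seen in 2 of the 5 members and in 2.06% of all. Replicate 4 was the lowest E18 sample in all 4 members. This pattern was held by 320 of the 339 genes tested with that spread, or 1.95% of all genes tested.

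**Figure D3:**
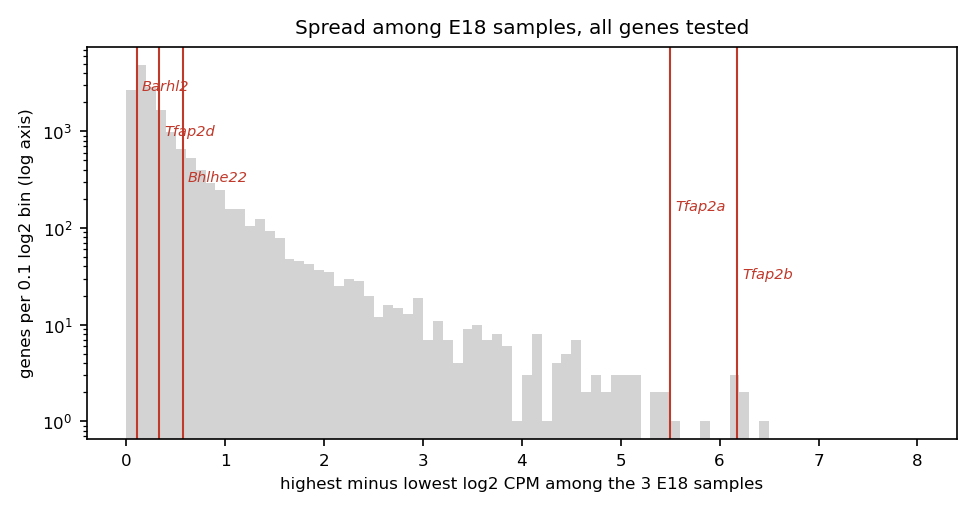
Histogram of the spread among the E18 samples, as highest minus lowest log2 CPM, over the 16449 genes tested (genes per bin, log axis), with lines at the 5 members that passed the filter. Tfap2a and Tfap2b lie at the far right, at 45.2-fold and 72.5-fold, and Barhl2 lies at the far left, at 1.08-fold.

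Marker lists of other cells differed among the same E18 samples. Retinal progenitor genes, 8 of 8 tested, summed to 241, 65.2 and 40.8 CPM in E18 replicates 1, 3 and 4. Dividing cell genes, 8 of 8 tested, summed to 199, 51.2 and 13.3 CPM. These lists were highest in replicate 1, as were Prdm13, Tfap2c, Tfap2e and Bhlhe22, whereas Tfap2a, Tfap2b and Ptf1a were highest in replicate 3. The endothelial and pericyte list, 7 of 8 genes tested, summed to 71.8, 64.0 and 15.5 CPM at E18 and 11.01 to 15.6 at P5. Most of it was Kdr, at 69.5, 62.9 and 14.1 CPM at E18, with Cdh5 at 0 to 0.0609 CPM in all samples. Kdr and Cdh5 were picked after their values were seen. The part of any of these in the members' values was not tested. In bulk RNA, fewer cells of a type and less RNA per cell cannot be told apart.

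Compared per kb of exon, so that genes of different length can be ordered, Tfap2d and Barhl2 stood above the others. At E18 they were at 46.5 ± 5.68 and 33.6 ± 1.27 CPM per kb (SD, n = 3), followed by Tfap2b at 9.00 ± 9.51, Bhlhe22 at 3.03 ± 0.715, Tfap2a at 0.737 ± 0.762, Ptf1a at 0.378 ± 0.288, Prdm13 at 0.149 ± 0.123, Tfap2e at 0.0742 ± 0.0310 and Tfap2c at 0.0556 ± 0.0349. The means ± SD of neighbours in this order overlapped for Tfap2b with Bhlhe22 and for each pair from Tfap2a down, but not between Tfap2d and Barhl2, Barhl2 and Tfap2b, or Bhlhe22 and Tfap2a. At P5 the order was Tfap2d (53.2 ± 6.03), Barhl2 (30.1 ± 7.51), Bhlhe22 (6.34 ± 0.870), Tfap2b (0.214 ± 0.0454), Tfap2e (0.0357 ± 0.0143), Ptf1a (0.0308 ± 0.0111), Tfap2a (0.0256 ± 0.00729), Prdm13 (0.0204 ± 0.00697) and Tfap2c (0.0105 ± 0.00978). By the same measure the first 4 of these stood apart from one another and from the rest, and neighbours among the last 5 overlapped. Tfap2b stood above Bhlhe22 in the E18 mean and below it at P5. In E18 replicate 4 alone, Tfap2b was at 0.26 CPM per kb against 2.59 for Bhlhe22.

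The genes whose levels followed a member most closely over the 6 samples were found among the 13426 genes that averaged 1 CPM or more, by the root mean square difference of centred log2(CPM + 1) values. For Tfap2b these were Megf10 (0.23), Sox2 (0.26), Sox2ot (0.60), Has2 (0.69) and Gm14204 (0.98), where the deviation of Tfap2b from its own mean was 2.39. Megf10, a receptor that spaces starburst amacrine cells, was at 163, 377 and 11.2 CPM at E18 and 7.53, 11.4 and 9.24 at P5. Sox2, a factor of progenitors, Müller glia and starburst cells, was at 45.7, 69.3 and 0.950 CPM at E18 and 0.789, 1.48 and 0.829 at P5. Both shared with Tfap2b the high values of E18 replicates 3 and 1, in that order, and the low value of replicate 4. For Tfap2a the nearest were Fezf1 (0.13), Slc32a1 (0.17) and Gabrd (0.25), against its own deviation of 1.13.

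For the members of even level the nearest genes differed by little in absolute terms because all of them varied little. They were Vaultrc5 (0.05), Map4k3 (0.06) and Pde10a (0.06) for Tfap2d, with its own deviation of 0.17, and Cdan1 (0.03), Trafd1 (0.03) and Pqlc1 (0.04) for Barhl2, with its own of 0.22. For Bhlhe22 they were Adrb1 (0.10), Ebf2 (0.11) and Agpat9 (0.12), against 0.54. Ebf2 is itself a factor of amacrine and RGC subtypes. Ptf1a, Prdm13, Tfap2c and Tfap2e had means under 1 CPM and were not compared in this way. These are measures of likeness over 6 samples and carry no test.

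Other genes of the same pathways were read in the comparison of E18 with P5. The 7 lists held 77 symbols, of which 76 were in the count table. Of these, 69 were tested, 24 rose at E18, 19 fell and 26 did not pass the threshold. Here and below, rose and fell mean higher and lower at E18 than at P5. Over all genes tested, 20.8% rose and 22.5% fell. The lists were chosen with earlier results known, so their counts are a description. Adjusted p-values are those of edgeR's quasi-likelihood test with Benjamini-Hochberg adjustment over all genes tested.

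Genes whose products bind or modify AP-2 proteins differed modestly. Of the 8 partners, 3 rose and 1 fell, with a median log2 fold change of 0.33. Cited2, a co-activator of AP-2 proteins, rose by 1.13 ± 0.13 (SE) in log2 units (edgeR adjusted p = 0.000507), Kctd15, an inhibitor of AP-2α, by 1.03 ± 0.11 (edgeR adjusted p = 0.000435), and the acetyltransferase Ep300 by 0.74 ± 0.14 (edgeR adjusted p = 0.00321). Cited4 fell by 1.20 ± 0.38 (edgeR adjusted p = 0.0300), a call lost without E18 replicate 3 or 4 or P5 replicate 6 or 9 (edgeR adjusted p = 0.0691 to 0.116). None of the partners had E18 samples 4-fold apart.

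The partners and relatives of Ptf1a and Prdm13 included its cofactors. Of the 9 genes, 6 were tested, of which 2 rose and 1 fell, with a median of 0.30. Rbpj, the partner that Ptf1a shares with Notch signalling, rose by 1.24 ± 0.21 (edgeR adjusted p = 0.00247) and the E protein Tcf3 by 0.63 ± 0.15 (edgeR adjusted p = 0.0110). The E protein Tcf4 fell by 0.67 ± 0.20 (edgeR adjusted p = 0.0229), a call lost without E18 replicate 3 or P5 replicate 6 or 8 (edgeR adjusted p = 0.0588 to 0.0637). None of the 6 tested had E18 samples 4-fold apart. Among the 3 below the filter, Olig2, a factor of precursors, was at 1.22, 0.357 and 0.0552 CPM at E18 and at most 0.0203 CPM at P5, with replicate 4 again the lowest at E18.

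The factors that act upstream of Ptf1a or in the same precursors showed larger differences. Of the 13 tested, 6 rose and 1 fell, with a median of 0.79. Foxn4, which switches on Ptf1a in precursors, rose by 6.20 ± 1.25 (edgeR adjusted p = 0.00499). It was at 5.87, 1.28 and 0.210 CPM in E18 replicates 1, 3 and 4 against 0.0338, 0.0508 and 0.0106 at P5. It thus had its highest value in replicate 1, like Prdm13 and unlike Tfap2b. Neurog2, a proneural factor, rose by 3.56 ± 0.69 (edgeR adjusted p = 0.00407). Meis2 fell by 1.05 ± 0.12 (edgeR adjusted p = 0.000413). The E18 samples lay at least 4-fold apart for 5 of the 13, each with replicate 4 the lowest.

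The factors of amacrine subtypes moved in both directions, 3 up and 7 down of 14, with a median of -0.32. Sox2 rose by 5.22 ± 1.19 (edgeR adjusted p = 0.00840; 0.0502 without P5 replicate 6) and Fezf1, a factor of one class of starburst cell, by 4.74 ± 1.28 (edgeR adjusted p = 0.0176). The call for Fezf1 was lost without E18 replicate 3 or P5 replicate 6 or 9 (edgeR adjusted p = 0.0539 to 0.0789). Ebf1 rose by 0.36 ± 0.09 (edgeR adjusted p = 0.0112; 0.0523 without E18 replicate 3). Neurod2 fell by 3.96 ± 0.24 (edgeR adjusted p = 6.12e-05), with 0.928 to 1.33 CPM at E18 against 13.8 to 22.9 at P5. Neurod6, which marks a glycine- and GABA-negative amacrine type, fell by 2.46 ± 0.35 (edgeR adjusted p = 0.00114) and Lhx9 by 2.09 ± 0.49 (edgeR adjusted p = 0.00961).

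The list of inhibitory amacrine cells holds transmitter genes and some others. Of the 15 tested, 1 rose and 7 fell, with a median of -1.46. The one that rose was Slc32a1, the vesicular transporter for GABA and glycine, by 3.89 ± 0.99 (edgeR adjusted p = 0.0136; 0.0681 without P5 replicate 6). It was at 4.87, 8.30 and 0.221 CPM at E18 and 0.226 to 0.355 at P5, with E18 replicate 3 the highest and replicate 4 the lowest, as for Tfap2a. Of the peptide genes, Crh fell by 4.81 ± 0.74 (edgeR adjusted p = 0.00156), Penk fell by 2.79 ± 0.48 (edgeR adjusted p = 0.00243) and Tac1 fell by 1.89 ± 0.15 (edgeR adjusted p = 0.000144). Crh was near the limit of detection at E18, at 0.00892 to 0.0482 CPM against 0.295 to 1.37 at P5. Gad1, which makes GABA and was picked after its values were seen, was at 19.2, 35.1 and 0.486 CPM at E18 and 1.86, 3.91 and 3.47 at P5. Its E18 replicate 4 lay below every P5 sample, and its log2 fold change of 2.57 ± 1.02 did not pass the threshold (edgeR adjusted p = 0.0709; 0.000767 without E18 replicate 4). The call also changed with the likelihood ratio test (edgeR adjusted p = 0.0235) and with no filter on low counts (edgeR adjusted p = 0.0372).

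All 7 genes of starburst amacrine cells, the cholinergic amacrine type, rose, with a median of 3.22. The largest values were those of Sox2 and Fezf1, given above, and of Megf10 (4.29 ± 0.97, edgeR adjusted p = 0.00819). In 5 of the 7 the E18 samples lay at least 4-fold apart with replicate 4 the lowest, and the list summed to 263, 517 and 49.4 CPM in E18 replicates 1, 3 and 4 against 24.5 to 34.5 at P5. The other 2 were the choline transporter Slc5a7 and Slc10a4, picked after their values were seen. Slc5a7 was even at E18, at 8.55, 7.92 and 8.44 CPM against 2.71 to 4.33 at P5, and rose by 1.33 ± 0.21 (edgeR adjusted p = 0.00162). Slc10a4 was at 30.6, 37.5 and 27.3 CPM against 9.93 to 17.2 and rose by 1.16 ± 0.21 (edgeR adjusted p = 0.00305). Chat, which makes acetylcholine and was likewise picked, was at 5.59, 10.9 and 0.287 CPM at E18 and 0.237 to 0.797 at P5, and its rise of 3.22 ± 1.00 (edgeR adjusted p = 0.0303) was lost without E18 replicate 3 or any 1 of the P5 samples (edgeR adjusted p = 0.0655 to 0.117).

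**Figure D4:**
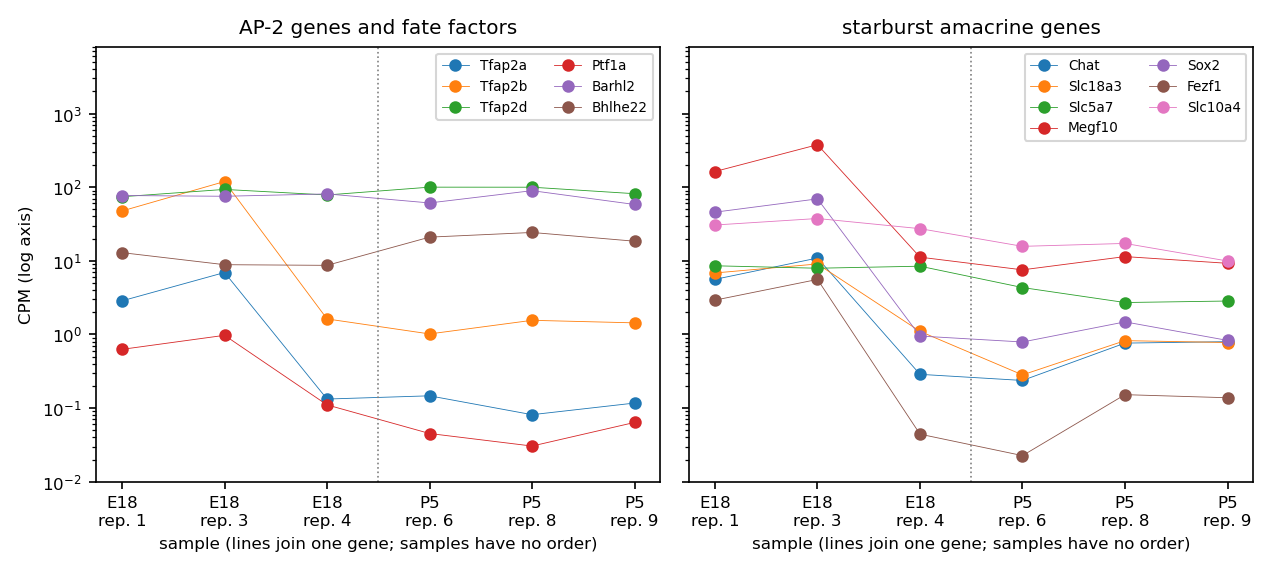
CPM (log axis) in each of the 6 samples for 6 of the members (left) and for the 7 starburst amacrine genes (right), with thin lines joining the points of a gene to guide the eye. Tfap2a, Tfap2b and Ptf1a on the left are far higher in E18 replicates 1 and 3 than in replicate 4. So are Sox2, Megf10, Chat, Slc18a3 and Fezf1 on the right, while Slc5a7 and Slc10a4 are even among the E18 samples.

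Horizontal cells share Ptf1a, Tfap2a and Tfap2b with amacrine cells. Of 10 genes known from them, 8 were tested, 4 rose and 2 fell, with a median of 0.82. Prox1, a homeobox factor that also stands in the lens list, rose by 2.43 ± 0.59 (edgeR adjusted p = 0.0109, or 0.0574 without P5 replicate 6). It was at 6.83, 10.6 and 2.0 CPM at E18 against 0.733 to 1.94 at P5. Gja10, a connexin of horizontal cells, rose by 2.18 ± 0.53 (edgeR adjusted p = 0.0109; 0.0534 without E18 replicate 3) and Onecut3 by 1.72 ± 0.41 (edgeR adjusted p = 0.00989). Sept4 fell by 0.61 ± 0.13 (edgeR adjusted p = 0.00679). Lhx1 and Sall3, the genes below the filter, were at up to 0.954 and 1.39 CPM in E18 replicate 3 and at most 0.0406 CPM at P5.

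**Figure D5:**
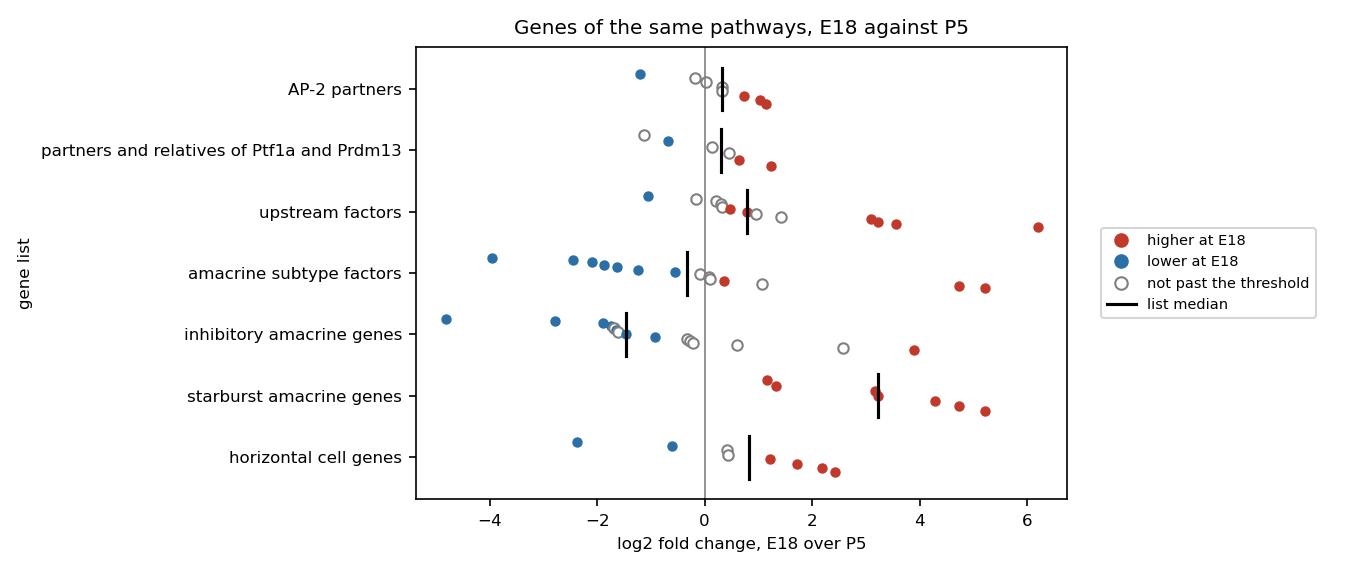
Log2 fold change, E18 over P5, of the tested genes of 7 pathway lists, 1 point per gene, filled where the adjusted p passed the threshold, with a bar at the list median. The 7 starburst genes all lie to the right of 0, with a median of 3.22, and most inhibitory amacrine genes lie to the left, with a median of -1.46.

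Among the genes on either side of the members on the chromosome, 12 that are not members were tested and 6 passed the threshold, against 43.4% of all genes tested. Pkhd1, beyond Tfap2b, rose by 0.87 (edgeR adjusted p = 0.0128), against the 5.39 fitted for Tfap2b. Cyp7b1, beside Bhlhe22, fell by 1.5 (edgeR adjusted p = 0.00188), beside the -1.07 of Bhlhe22. Gcnt2 beside Tfap2a (-0.80), Ncdn beside Tfap2e (-0.67), Ccnc beside Prdm13 (-0.46) and Zfp326 beside Barhl2 (0.46) were the other 4.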

How the data were processed

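The authors aligned 100-base paired-end reads to mm10 with STAR 2.4.0 and deposited raw read counts per RefSeq gene from HT-seq 0.6.1. The submitters' processing notes also name CASAVA 1.8.2. Labels give polyA RNA, whereas the protocol names RiboZero Gold. Normalized counts, a signal that the authors scaled by TMM, and the log2 fold changes, p-values and ranks they deposited from their own comparison were not used. The strand setting and the handling of multi-mapped reads are not given in the sources used here.

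Counts were normalized by TMM, filtered by filterByExpr and put through edgeR's quasi-likelihood test (edgeR 4.0.16, R 4.3.3). P-values of the 16449 genes kept were adjusted by Benjamini-Hochberg, and 0.05 was the threshold. CPM uses the TMM library sizes, and SE is the log2 fold change over the root of F. On simulated counts of 16300 genes, edgeR recovered 118 of 200 genes changed 2-fold (59%), with 8 false calls. DESeq2 recovered 142 of them (71%), with 48 false calls. Replicates differed by more than sampling noise (chi-square of 30.5 to 141 per degree of freedom). Nothing states that samples came from separate animals, so p-values measure the spread between these samples. Exon lengths and positions were taken from GENCODE for mm10, which covered the 9 members. Members, lists and tests were chosen with earlier results of these data known. Named genes are the members, up to 3 rises and 3 falls per list, the nearest profiles and the chromosome neighbours, and any other gene is named as picked after its values were seen. A few genes that this rule would name are not reported here. Alternatives were DESeq2 1.42.0, the likelihood ratio test, other normalizations and filters, and the omission of each sample.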

Additional observations from a re-analysis of the deposited data

How the results depend on the processing

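The log2 fold changes of Tfap2a, Tfap2b, Tfap2d, Barhl2 and Bhlhe22 kept their sign under every alternative that gave them a value. Of 810 values of 69 pathway genes under the alternatives, 759 kept their side of the threshold, 29 lost a call, 22 gained one and 0 changed sign. The number of genes past the threshold was 7135, between 4575 (without E18 replicate 3) and 8796 (without P5 replicate 8) when a sample was left out, and 7634 with DESeq2. The number of members with ages at least 2-fold apart by log2 fold change was 3. It was 7 with no filter on low counts and 2 at 1 CPM or more in 3 samples, since the filter decides how many members are tested, and 2 to 7 when a sample was left out. The starburst list gave 4 to 7 calls when a sample was left out, with the fewest without P5 replicate 6, where the cause was not tested, and the upstream factors gave 4 in place of 7 at 1 CPM or more in 3 samples, where fewer genes were tested. No paired analysis was possible because the ages share no replicate number. Depth limits Ptf1a, Prdm13, Tfap2c and Tfap2e, which had 1 to 10 reads in E18 replicate 4 and the P5 samples.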
